A study of Mus musculus with 12 samples.

Results

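The comparison described here set CD8+ T cells that had met their antigen in a living mouse against CD8+ T cells that had not. It holds 7 of the 12 RNA sequencing samples of the series, the 5 of the antigen-only group (Ag) and the 2 of the naïve group (Naive), and all 55536 annotated genes of the gene count table. All samples came from OT-I mice, a C57BL/6J line whose T cells carry 1 transgenic receptor for the ovalbumin peptide SIINFEKL presented by H-2Kb, on a background deficient in a recombinase-activating gene per the study's methods. For the Ag group, such cells were transferred into unmanipulated C57BL/6J recipients, which then received SIINFEKL peptide and control rat IgG, and donor CD8+ T cells were sorted from spleen and lymph nodes after 4 days by the labels (the methods give a slightly shorter time). The Naive samples were CD8+ T cells purified from OT-I mice that took no part in a transfer, so transfer, host and sorting scheme differ between the groups together with antigen and cannot be told apart from it. A further group of 5 samples (Ag+Costim) received the agonist antibodies to CD134 and CD137 with the peptide. It entered the fit for its estimate of the spread, the count filter, the scaling and the mean level used to rank genes. Its levels are given only where they place a gene. Nothing in the labels says whether a sample is 1 mouse or a pool, so p-values measure the spread between these samples.

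Naïve CD8+ T cells are small, non-dividing cells that depend on interleukin 7 and on tonic receptor signals, and they circulate through lymph nodes by means of the chemokine receptor CCR7. Antigen recognized through the T cell receptor drives them into the cell cycle and switches on effector genes such as granzymes and cytokines. A peptide given without inflammation or costimulation is known as a tolerizing signal, after which cells divide but become hyporesponsive, a state called anergy. Inhibitory receptors such as PD-1 and LAG-3 mark cells with repeated receptor signalling. The paper describes cells given antigen alone as not overtly anergic, since they could still expand and make interferon γ.

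The libraries held 24006053 (Ag 4) to 45980125 counts in the Ag group and 42342577 and 43491402 in the Naive group. A count here is derived by the authors' assembler from read coverage, and the totals came to 1.20 to 1.42 counts for each aligned read, lowest in the Naive libraries (1.20 and 1.21). Levels are given as CPM, counts scaled to a common library size with the trimmed mean factors of edgeR, and fold changes as log2 of Ag over Naive with their standard error (SE). The cells were T cells by their transcripts. The 17 T cell identity genes summed to 20899 and 20033 CPM in Naive 1 and Naive 2 and to 19339 to 26670 CPM in the Ag libraries. Their median log2 fold change was -0.10, with 8 members above 0 and 9 below, from -2.11 to 0.83. The segment Trbv12-1, which encodes the Vβ5 chain of the OT-I receptor, stood at 1455 and 1436 CPM in the Naive libraries and at 1789 to 2919 CPM in the Ag libraries, and Cd8a at 776 and 861 CPM against 935 to 1302 CPM. Library Ag 4 had the fewest counts and 2.28% of counts on mitochondrial genes, against 0.694% to 1.2% in the other Ag libraries and 1.21% and 1.44% in the Naive libraries. Y-linked transcripts summed to 276 CPM in Naive 1 and 2.23 CPM in Naive 2, and Xist stood at 0.823 and 248 CPM. In Ag 1 and Ag 2 the Y-linked sum was 201 and 203 CPM. It was 3.68 CPM or less in Ag 3 to Ag 5, where Xist stood at 206 to 458 CPM. By these transcripts both groups held cells of both sexes. The preparation sheet lists an input amount of 0, without a unit, for all 5 Ag libraries and of 8.5 and 10.7 for the Naive libraries, which cannot be told apart from the group.

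Levels differed between Ag and Naive for a large part of the genes. Of 18817 genes with enough counts to test, 4559 (24.2%) were called higher and 4233 (22.5%) lower in Ag than in Naive, at an adjusted p below 0.05. The median log2 fold change over all genes tested was 0.02. Against a fold change of 2 in place of 0, the test called 1177 genes higher and 1066 lower. The genes that moved most were drawn from those called with a mean log2 CPM above 3 over all 12 libraries. They also had no overlap between the 5 Ag and the 2 Naive libraries. This set held 3052 genes above (16.2% of those tested) and 2586 below (13.7%). Levels in Ag+Costim enter that mean, so they bear on which rises and falls could rank. On simulated counts with the same group sizes, 200 of 18817 genes were changed, a far smaller share than was called here. Of these, 39 of 100 changed by 1 on the log2 scale and 55 of 100 changed by 2 were called. There were 3 false calls among 18617 unchanged genes. The adjusted p depends on the share of genes that change, so these rates do not give the share recovered in this comparison. Genes left uncalled here cannot be read as unchanged. Beside the genes described below, the 20 largest rises held genes of DNA metabolism and division (Fignl1 at 6.58, Cdc25c at 5.60, Pif1 at 5.49, Pclaf at 5.46, Pbk at 5.45 and Lrr1 at 5.41) as well as Bcat1 (5.46), Endod1 (5.45) and Zdhhc2 (5.36).

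**Figure D1:**
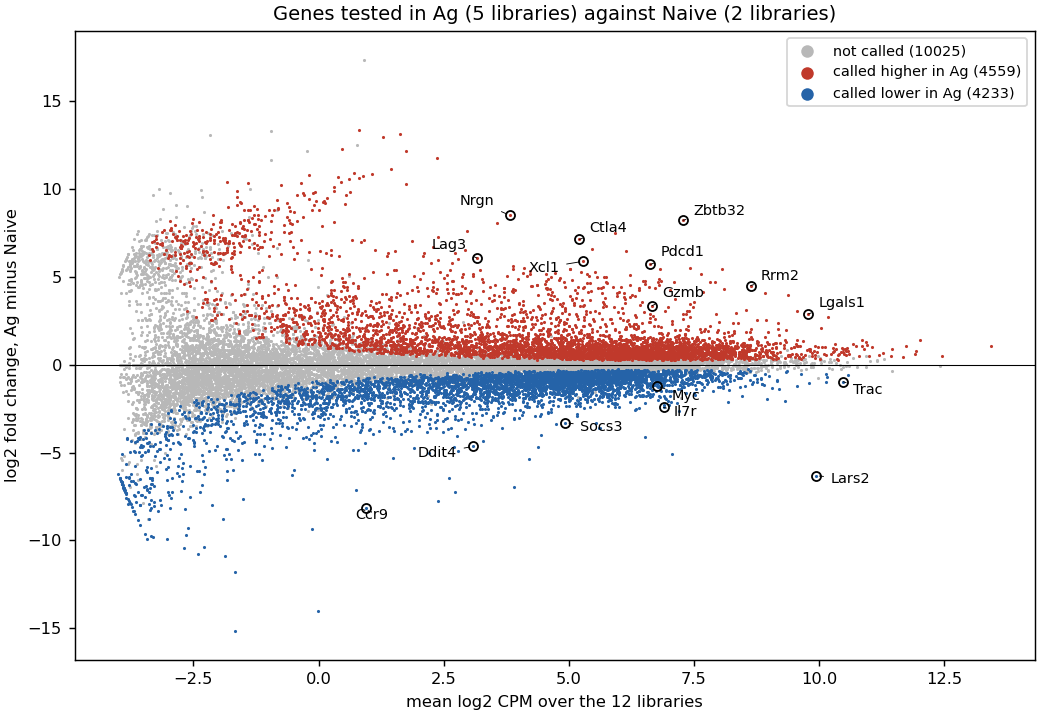
Each point is 1 of the 18817 genes tested, with its mean log2 CPM over the 12 libraries on the x axis and its log2 fold change, Ag minus Naive, on the y axis. The 4559 genes called higher in Ag are red, the 4233 called lower are blue, and the circled genes are described in the text, from Nrgn at 8.51 to Ccr9 at -8.15.

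Inhibitory receptors were among the genes with the largest rises. Of 24 members tested, 15 were called higher and 2 lower in Ag, where 24.2% of all genes were called higher, and the list's median log2 fold change was 1.76. Pdcd1, which encodes the inhibitory receptor PD-1, stood at 3.25 and 3.63 CPM in the Naive libraries and at 206, 218, 149, 144 and 187 CPM in Ag 1 to Ag 5. Every Ag library lay far above both Naive libraries, a rise of 5.71 ± 0.32 (SE) on the log2 scale with an adjusted p of 5.8e-08. Ctla4, the receptor that competes with CD28 for its ligands, was at 0.782 and 1.24 CPM in Naive and at 151, 162, 129, 105 and 166 CPM in Ag, a rise of 7.14 ± 0.418 with an adjusted p of 7.38e-08. Lag3, which binds MHC class II, rose by 6.08 ± 0.615 from a mean of 0.175 ± 0.247 (SD, n = 2) to 12.1 ± 3.24 CPM (SD, n = 5), with an adjusted p of 4.53e-06. It was listed at 0 in Naive 2, so the fold rests on few counts. Cd160, an Ig-family receptor for HVEM, was already at 39.7 and 44.8 CPM in Naive and stood at 163 to 280 CPM in Ag. Havcr2 (TIM-3), a mark of terminally exhausted cells, rose to a mean of 3.8 ± 0.794 CPM (SD, n = 5) from 0.335 ± 0.299 (SD, n = 2), a log2 fold change of 3.49, and Tigit to 4.11 ± 1.51 CPM. The levels reached were uneven, at 105 CPM or more in every Ag library for Pdcd1, Ctla4, Cd160 and Cd200 and at 16.1 CPM or less for Lag3, Havcr2 and Tigit. Cd200, whose product is a ligand of the myeloid receptor CD200R and is also found on B cells, was at 6.28 and 7.03 CPM in Naive and between 136 and 335 CPM in Ag. The 2 members called lower, Lilr4b (-2.74) and Lilrb4a (-1.01), encode near-identical leukocyte immunoglobulin-like receptors whose reads cannot be fully told apart.

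The 3 largest rises among the genes with a mean log2 CPM above 3 and no overlap were members of the list of anergy and dysfunction genes. Its members were chosen with earlier results of these data known, so their rank and shares describe the list and do not test for anergy. Of 33 members, 15 (45.5%) were called higher and 7 (21.2%) lower, against 24.2% and 22.5% of all genes, with a median log2 fold change of 0.56. Without Naive 2, 4 were called lower. Nrgn, which encodes the calmodulin-binding protein neurogranin, was at 0.556 and 0.231 CPM in Naive and at 234, 198, 103, 60.4 and 127 CPM in Ag, a rise of 8.51 ± 0.949 with an adjusted p of 1.64e-05. Zbtb32, a zinc finger repressor of cytokine genes and of proliferation, stood at 2 and 1.39 CPM in Naive against 546, 700, 368, 395 and 533 CPM in Ag, a rise of 8.23 ± 0.338 with an adjusted p of 1.29e-08. Nrn1, which encodes the surface protein neuritin, rose by 8.08 ± 1.7 to between 51 and 170 CPM, with an adjusted p of 0.00288. Each of these transcripts was close to absent in both Naive libraries. Nrp1, a semaphorin co-receptor carried by tolerant and regulatory T cells, rose by 6.48 ± 0.335 to 204 ± 39.2 CPM (SD, n = 5), and Izumo1r, the folate receptor 4 gene that marks anergic CD4+ T cells, by 4.94 ± 0.449 to 259 ± 44.8 CPM. Izumo1r was at 5.61 ± 2.56 CPM in Ag+Costim (SD, n = 5), close to the 8.43 ± 2.36 CPM of Naive (SD, n = 2). The early growth response gene Egr2 rose by 1.40 ± 0.369 to between 26.7 and 36.6 CPM from 12 and 12.6 CPM, with an adjusted p of 0.00709, and Tox, a factor of the exhaustion programme, by 1.01 ± 0.215 to between 92 and 147 CPM from 61.8 and 65 CPM. The call for Egr2 was lost without either Naive library, with log2 fold changes from 1.07 to 1.69 over all alternative settings. Among regulators known to restrain receptor signalling, Rnf128 rose (2.77), Itch (-1.34) and Dtx1 (-1.75) fell, and Cblb did not pass the test (0.12, or 0.63 and called with the length correction). Rnf128 had a value in 15 of 17 alternative settings, from 2.12 to 3.94. The list did not move in 1 direction.

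**Figure D2:**
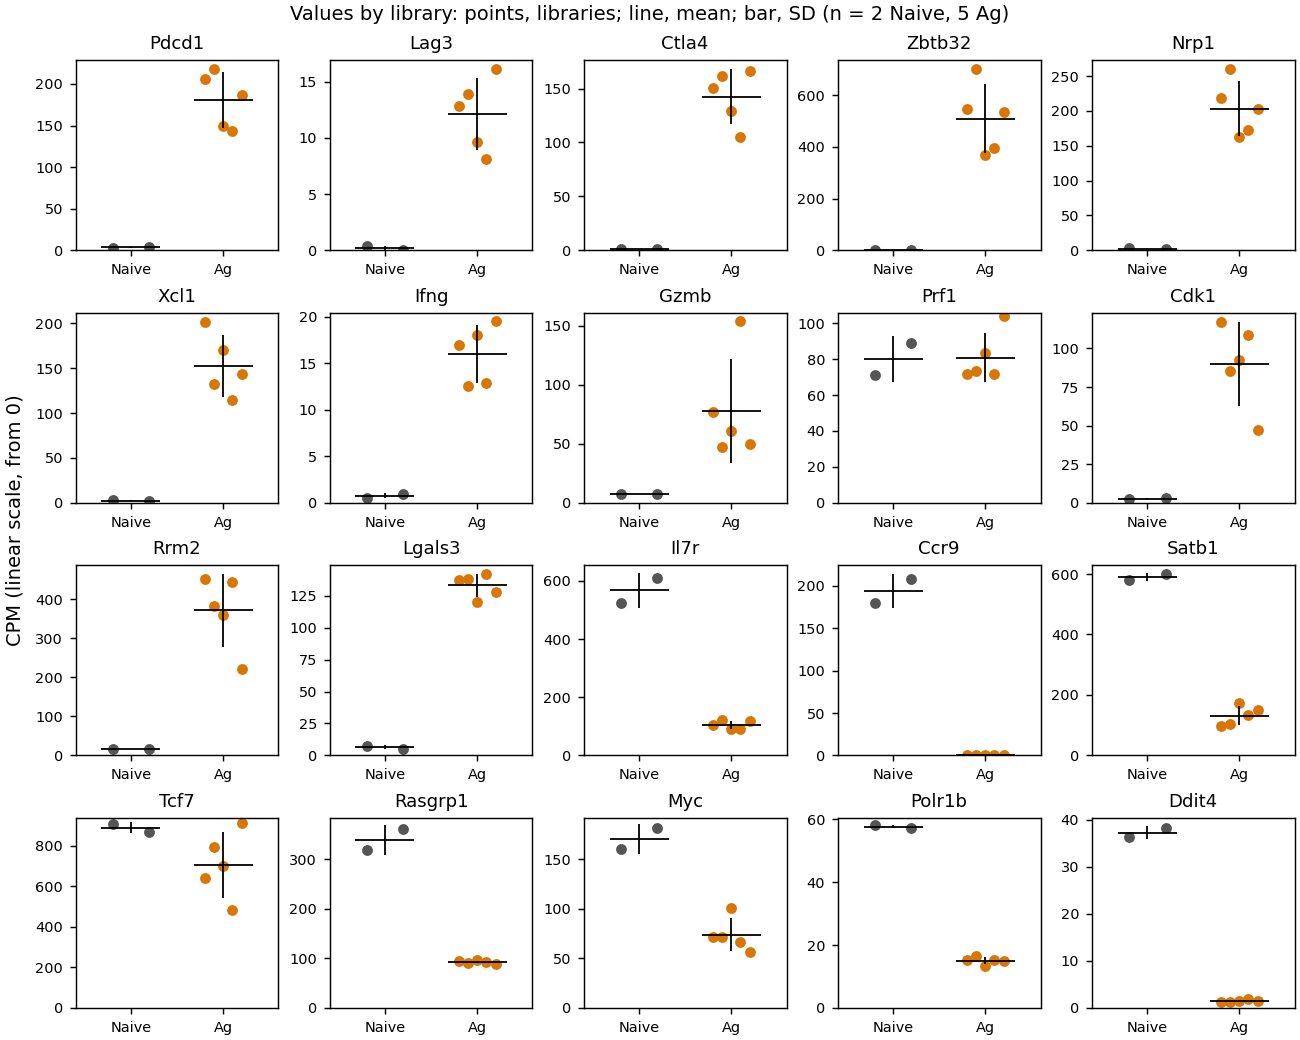
Each panel plots 1 gene in CPM on a linear axis from 0, with 2 Naive libraries (grey) and 5 Ag libraries (orange) as points, the mean as a line and the SD as a bar. In 18 of the 20 panels the groups do not overlap, and Prf1 and Tcf7 are those that do.

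Receptors and ligands of costimulation moved upward as well. Of 25 members, 17 (68%) were called higher and 3 (12%) lower, against 24.2% and 22.5% of all genes, and the median log2 fold change was 1.01. Tnfrsf9, which encodes CD137, the target of one of the antibodies given to the Ag+Costim group, was at 6.05 and 5 CPM in Naive and at 114, 102, 96.2, 70.2 and 90.8 CPM in Ag, a rise of 4.10 ± 0.417 with an adjusted p of 4.77e-06. Tnfrsf4, which encodes CD134, the target of the other, reached 4.88 to 11.3 CPM from 1.23 and 1.57 CPM, a rise of 2.42 ± 0.836 with an adjusted p of 0.0296. That call was lost without either Naive library, without Ag 2 and on the deposited FPKM values, which are levels per transcript length, with log2 fold changes from 1.61 to 3.28 over all settings. Icos and Cd28, which bind B7-family ligands, rose by 1.41 and 0.82, and Icos stood at 130 to 173 CPM against 50.1 and 71.2 CPM. Cd86, itself a ligand of CD28 and CTLA-4 and abundant on B cells and dendritic cells, rose by 4.57 ± 0.453 to between 24.2 and 44.5 CPM from 1.93 and 1.01 CPM. B cell markers rose in the same libraries, as given below, and their part in the level of Cd86 was not tested.

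Markers of activation split by kind. Of 16 surface markers, 10 (62.5%) were called higher and 2 (12.5%) lower, against 24.2% and 22.5% of all genes, with a median log2 fold change of 0.83. Cd44, the classical memory and activation marker, rose from 13.8 and 14.5 CPM to between 25.7 and 31.4 CPM (0.98 ± 0.127, adjusted p of 3.66e-05). Cd69, an early marker that holds cells in lymphoid tissue, fell by 1.22 ± 0.201 on the log2 scale, from 188 and 234 CPM to between 77.7 and 101 CPM, and Tfrc, the transferrin receptor, fell by 1.02, a call lost without Naive 1, with the length correction and with replicate numbers as a block (-1.27 to -0.66 over all settings). Il2ra, the high-affinity subunit of the interleukin 2 receptor, stood at 3.4 and 3.55 CPM in Naive and between 1.03 and 5.42 CPM in Ag, with overlapping groups and an adjusted p of 0.404. Among 26 immediate early genes of receptor signalling, 6 were called higher and 6 lower, near the shares over all genes, with a median of 0.09 (-0.15 on the FPKM values). Nr4a2, an orphan nuclear receptor, rose by 5.10 ± 0.367 to between 11.8 and 16.6 CPM, and Dusp2, a phosphatase of MAP kinases, by 2.59 ± 0.389 to between 203 and 399 CPM from 51.1 and 56.9 CPM. Nr4a1 (-0.64), Tnfaip3, the NF-κB feedback inhibitor A20 (-1.36), and Ier3 (-1.80) fell, the call for Nr4a1 being lost without Naive 2 and with the GC correction (-0.84 to -0.45 over all settings).

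Genes of the naïve state mostly fell. Of 31 members tested, 22 were called lower and 4 higher, against 22.5% of all genes called lower, and the median log2 fold change was -1.22. The 4 called higher became 2 without Naive 1 and 1 without Naive 2. Il7r, the receptor chain for the survival cytokine interleukin 7, went from 525 and 610 CPM in Naive to 105, 121, 90.7, 91.4 and 119 CPM in Ag, a change of -2.43 ± 0.179 with an adjusted p of 3.57e-07. Ccr9, the chemokine receptor for the gut and thymus, went from 180 and 208 CPM to between 0.201 and 1.03 CPM (-8.15 ± 0.362, adjusted p of 1.44e-08), a fall to near absence in every Ag library. Its annotation shares exonic bases with other genes on both strands. Socs3, the feedback inhibitor of gp130 cytokine signals, was at 202 and 195 CPM in Naive and between 14.6 and 31.1 CPM in Ag (-3.30 ± 0.244), and Il6ra, the interleukin 6 receptor itself, at 204 and 197 CPM against 14.2 to 24.5 CPM (-3.35 ± 0.337). Satb1, a chromatin organizer of naïve T cells, changed by -2.17 and Bach2, a repressor of effector genes, by -1.48. Lef1, one of the pair of HMG-box factors of naïve and memory cells, fell by 1.43 ± 0.199 to between 281 and 402 CPM from 945 and 958 CPM. The other of that pair, Tcf7, stood at 908 and 869 CPM in Naive and at 640, 793, 699, 481 and 910 CPM in Ag, and the groups overlapped (-0.33 ± 0.236, adjusted p of 0.266). Ccr7 went from 1083 and 1191 CPM to between 439 and 801 CPM (-0.77 ± 0.238, adjusted p of 0.017), a call that was lost without either Naive library and with the block (-0.97 to -0.65 over all settings). Dapl1, a gene of long-lived naïve and memory CD8+ T cells, rose by 1.89 ± 0.303 from 382 and 351 CPM to between 890 and 1653 CPM, and Foxo1, the transcription factor that maintains Il7r, rose by 0.50 ± 0.139, a call lost without Naive 2 and on the FPKM values (0.31 to 0.94 over all settings).

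Homing and cytokine receptor genes held large changes in both directions, with shares called higher near that over all genes. Of 30 homing and adhesion genes, 6 (20%) were called higher and 13 (43.3%) lower, against 24.2% and 22.5% of all genes, with a median of 0.02 (-0.15 on the FPKM values and -0.16 with the block). Itgb1, the β1 integrin chain, stood at 95.6 and 87 CPM in Naive and at 531 to 1030 CPM in Ag (3.08 ± 0.237), and Cxcr3, the receptor for interferon-induced chemokines, at 73 and 40.7 CPM against 350 to 527 CPM (2.96 ± 0.292). Fut7, the fucosyltransferase that makes selectin ligands, rose by 3.51 and Gcnt1, which builds core 2 O-glycans, by 4.44. Itgae, which encodes CD103, the partner of β7 integrin on epithelial-resident cells, went from 86.4 and 88.3 CPM to between 1.12 and 3.59 CPM (-5.03 ± 0.323). S1pr1, the receptor by which T cells leave lymph nodes, and S1pr4 changed by -1.22 and -2.17. Among 30 cytokine receptors, 8 (26.7%) were called higher and 12 (40%) lower, with a median of -0.28. Ifngr2, the signalling chain of the interferon γ receptor, went from 50.9 and 51.2 CPM to between 2.91 and 4.31 CPM (-3.85 ± 0.257), and Tgfbr3 from 15 and 24 CPM to between 0.582 and 1.35 CPM (-4.44 ± 0.401). Il4ra (-2.16), Tgfbr2 (-1.72) and Il6st (-1.30) fell with them, whereas Ifnar2, a chain of the type I interferon receptor, rose (0.96). Il2rb (-0.07) and Il2rg (0.17), the shared chains of the interleukin 2 and 15 receptors, did not pass the test. Without Naive 2, 5 cytokine receptors were called higher in place of 8.

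Most of the cytokine, chemokine and cytotoxic genes tested were called higher. The shares called higher were 59.1% for cytokines and chemokines and 63.2% for cytotoxic genes, against 24.2% of all genes. Those called lower were 9.09% and 10.5%, against 22.5%. Of 22 cytokines and chemokines tested, 13 were called higher and 2 lower (1 lower without either Naive library), with a median log2 fold change of 2.88, or 1.75 without Ag 1. Their summed level did not rise, at 2015 and 2034 CPM in Naive and 1621 to 2050 CPM in Ag. With the members that had 0 counts in both Naive libraries set to the bound that 3 counts per library allow, the median was 1.72. Xcl1, the chemokine that attracts cross-presenting dendritic cells, was at 2.98 and 2.14 CPM in Naive and at 202, 132, 170, 115 and 144 CPM in Ag, a rise of 5.89 ± 0.808 with an adjusted p of 8.61e-05. Ccl4 and Ccl3, inflammatory CC chemokines, rose by 5.07 ± 0.427 and 5.77 ± 0.793 to means of 56.3 and 14.8 CPM. Ifng, which encodes interferon γ, was at 0.576 and 0.966 CPM in Naive and between 12.6 and 19.5 CPM in Ag (4.37 ± 0.308, adjusted p of 2.47e-07), and Tnf rose by 1.26 ± 0.207. Spp1, which encodes osteopontin, had 0 counts in both Naive libraries and 60.3, 55.9, 5.03, 10.5 and 24.7 CPM in Ag, at least 502-fold higher on the mean, with a spread of more than 10-fold between Ag libraries. Tgfb1 fell by 1.97 ± 0.201, from 54.4 and 53.6 CPM to between 10.4 and 19.2 CPM. Of 19 cytotoxic granule genes, 12 were called higher and 2 lower, with a median of 1.32. Gzmb, the effector protease granzyme B, was at 7.66 and 7.35 CPM in Naive and at 76.9, 47, 60.9, 154 and 49.5 CPM in Ag (3.37 ± 0.693, adjusted p of 0.00171), the highest value being that of Ag 4. In Ag+Costim it was at 476 ± 243 CPM (SD, n = 5). Nkg7, a granule membrane protein, rose by 1.32 ± 0.194 from an already high 1131 ± 189 CPM (SD, n = 2) to 2820 ± 378 CPM (SD, n = 5). Prf1, the pore-forming protein perforin, was at 71.2 and 89.2 CPM in Naive and at 71.8, 73.4, 83.4, 71.7 and 104 CPM in Ag, so that the groups overlapped (0.01 ± 0.227, adjusted p of 0.971). Gzma stood at 34.1 and 35.2 CPM in Naive and between 23.6 and 138 CPM in Ag, with Ag 4 again highest and an adjusted p of 0.398. The 6 NK cell markers summed to 197 CPM in Ag 4, to 70.8 to 88.2 CPM in the other Ag libraries and to 67.2 and 64.8 CPM in Naive, and their part in Gzma and Gzmb was not tested.

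Fate-determining transcription factors split nearly evenly. Of 42, 14 (33.3%) were called higher and 15 (35.7%) lower, against 24.2% and 22.5% of all genes. Their median of -0.11 became 0.22 with the length correction described below, 0.07 with the block, and 0.04 and 0.05 without Naive 1 and Naive 2. Beside Zbtb32, the largest rise was that of Myb, a factor of stem-like CD8+ T cells, from 9.88 and 9.81 CPM to between 86.7 and 125 CPM (3.35 ± 0.173, adjusted p of 3.03e-08). Irf4 (2.90), Irf8 (2.69), Batf (1.43), Tbx21 (1.51) and Eomes (0.88), factors of effector differentiation, rose, although the call for Eomes was lost without Naive 2 (0.60 to 1.02 over all settings). Id3, an inhibitor of E proteins in memory precursors, rose by 1.88 ± 0.236 to between 771 and 1114 CPM from 271 and 221 CPM. Prdm1 (-0.45), Id2 (0.27) and Stat4 (0.19) did not pass the test, and Bcl6 (-2.29), Runx3 (-1.18), Zeb1 (-1.26) and Stat5b (-1.12) fell. Of 36 genes of proximal T cell receptor signalling, 12 (33.3%) were called higher and 16 (44.4%) lower, with a median of -0.25 that became 0.07 with the length correction. Without Naive 1 and without Naive 2, 7 and 5 of these were called higher. Fyn rose by 1.20 ± 0.138 and Lck, the other Src-family kinase of the receptor, by 0.48 (a call lost without either Naive library and with the block, 0.34 to 0.57 over all settings). Rasgrp1, the diacylglycerol-dependent activator of Ras, went from 318 and 361 CPM to between 89.3 and 96.4 CPM (-1.87 ± 0.15). Trac, the constant region of the receptor α chain, fell by 0.96 ± 0.178 from 3582 and 3424 CPM to between 1254 and 2272 CPM, whereas Trbc2, a constant region of the β chain, rose by 0.77 ± 0.152.

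Cell cycle genes rose together. All 52 mitosis genes tested were called higher in Ag, where 24.2% of all genes were called higher and 22.5% lower. Their log2 fold changes lay between 0.50 (Pttg1) and 5.52 (Ccnb2), with a median of 3.78. The call for Pttg1, the securin gene, was lost without either Naive library, with the block and on the FPKM values (0.32 to 0.55 over all settings). Cdk1, the kinase that drives entry into mitosis, was at 2.45 and 2.83 CPM in Naive and at 117, 85.2, 92.6, 109 and 46.9 CPM in Ag (5.09 ± 0.357, adjusted p of 2.35e-07). Ccnb2, a cyclin partner of that kinase, was at 6.69 and 3.93 CPM against 330, 267, 230, 221 and 167 CPM. Ag 5 was lowest of the Ag libraries for both, and still lay far above both Naive libraries. Of 50 DNA replication genes, 43 (86%) were called higher and 3 (6%) lower, with a median of 1.23. Rrm2, the regulated subunit of ribonucleotide reductase, went from 16.1 and 16.7 CPM to 452, 384, 361, 444 and 221 CPM (4.51 ± 0.295), and Cdc6, which loads the MCM helicase at origins, from 1.87 and 2.75 CPM to between 26.4 and 60.9 CPM (4.35 ± 0.383). The MCM helicase genes rose less, from 0.66 (Mcm4, a call lost without Naive 1, with 0.48 to 0.80 over all settings) to 1.82 (Mcm5). The 3 members called lower were Dnmt1 (-0.68), Pold1 (-0.50) and Cdt1 (-0.44), which encode the maintenance DNA methyltransferase, the catalytic subunit of DNA polymerase δ and a licensing factor. All 3 calls were lost without Naive 2, those for Pold1 and Cdt1 also without Naive 1, with the block and with the GC correction, those for Dnmt1 and Pold1 with the length correction, and that for Pold1 without Ag 3, with values from -0.91 to -0.31, -0.70 to -0.24 and -0.65 to -0.25 over all settings for Dnmt1, Pold1 and Cdt1. Of 62 replication-dependent histone genes, 46 (74.2%) were called higher and 1 (1.61%) lower, with a median of 2.61. Their coding sequences are near-identical, their messages carry no poly(A) tail in dividing cells, and counts of single members are therefore uncertain. Among 34 cyclins, CDK inhibitors and E2F factors, 18 (52.9%) were called higher and 3 (8.82%) lower, against 24.2% and 22.5% of all genes. E2f1, E2f7 and E2f8, which are transcribed as cells pass into S phase, rose by 2.90, 4.18 and 4.15, whereas Cdkn1b, the p27 inhibitor of quiescent cells, fell by 0.91, a call lost without Naive 1 (-1.02 to -0.74 over all settings).

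Promoters of these genes were searched for the letters of known cell cycle elements, in windows of 250 bases before and 50 bases after each annotated start in RefSeq (GRCm38.p6). E2F factors bind sites that resemble the octamers TTTCCCGC, TTTGGCGC, TTTCGCGC and TTTGCCGC, and at least 1 of these stood on either strand in the promoters of 16 of the 41 DNA replication genes found in the table (39%), of 6 of 46 mitosis genes (13%) and of 704 of all 27025 genes in it (2.6%). The pentamer CCAAT, the core of NF-Y sites, stood in the promoters of 33 of 46 mitosis genes (71.7%) and 25 of 41 replication genes (61%), against 41.1% of all genes. The palindrome TGACGTCA, a cAMP response element, stood in the promoters of 1 of 41 replication genes (2.44%), 4 of 46 mitosis genes (8.7%) and 2.03% of all genes. A match describes letters, and binding was not measured in these samples. The mitosis genes were added to this search after their values were seen. The promoters of the replication genes with an octamer and the largest rises are shown here, with each octamer in capitals:
Cdc6 promoter, chr11:98907901-98908200, plus strand: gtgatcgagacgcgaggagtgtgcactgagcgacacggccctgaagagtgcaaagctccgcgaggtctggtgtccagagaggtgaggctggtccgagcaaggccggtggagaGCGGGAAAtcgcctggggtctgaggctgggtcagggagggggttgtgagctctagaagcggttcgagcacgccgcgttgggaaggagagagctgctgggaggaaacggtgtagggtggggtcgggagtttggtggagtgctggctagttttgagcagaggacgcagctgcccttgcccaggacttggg
Orc1 promoter, chr4:108579204-108579503, plus strand: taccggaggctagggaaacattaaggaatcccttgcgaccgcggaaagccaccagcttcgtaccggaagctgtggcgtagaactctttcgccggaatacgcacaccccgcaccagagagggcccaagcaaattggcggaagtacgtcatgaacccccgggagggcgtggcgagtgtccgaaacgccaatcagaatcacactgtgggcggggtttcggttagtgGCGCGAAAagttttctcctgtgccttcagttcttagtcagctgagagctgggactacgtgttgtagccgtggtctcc
Lig1 promoter, chr7:13278576-13278875, plus strand: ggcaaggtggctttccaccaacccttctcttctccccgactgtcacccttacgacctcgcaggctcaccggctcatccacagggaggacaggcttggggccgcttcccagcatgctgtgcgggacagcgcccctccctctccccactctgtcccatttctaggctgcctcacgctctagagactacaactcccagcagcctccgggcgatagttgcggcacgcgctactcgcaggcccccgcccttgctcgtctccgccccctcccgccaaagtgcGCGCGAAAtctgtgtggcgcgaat
Uhrf1 promoter, chr17:56304063-56304362, plus strand: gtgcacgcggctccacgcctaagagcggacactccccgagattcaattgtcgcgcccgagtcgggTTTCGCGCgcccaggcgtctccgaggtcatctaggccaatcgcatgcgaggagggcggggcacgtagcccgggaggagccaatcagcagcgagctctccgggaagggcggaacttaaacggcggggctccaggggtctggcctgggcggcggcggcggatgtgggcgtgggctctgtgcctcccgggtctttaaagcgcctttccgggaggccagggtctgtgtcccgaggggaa

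These genes rose by 4.35 (Cdc6), 2.75 (Orc1, the largest subunit of the origin recognition complex), 2.51 (Lig1, which joins Okazaki fragments) and 2.45 (Uhrf1, which guides DNA methylation to newly made DNA). For the mitosis genes with the largest rises and at least 1 pentamer, Ccnb2 and Ube2c, a ubiquitin-conjugating enzyme of the anaphase-promoting complex, the promoters are shown with CCAAT or its complement in capitals:
Ccnb2 promoter, chr9:70421505-70421804, minus strand: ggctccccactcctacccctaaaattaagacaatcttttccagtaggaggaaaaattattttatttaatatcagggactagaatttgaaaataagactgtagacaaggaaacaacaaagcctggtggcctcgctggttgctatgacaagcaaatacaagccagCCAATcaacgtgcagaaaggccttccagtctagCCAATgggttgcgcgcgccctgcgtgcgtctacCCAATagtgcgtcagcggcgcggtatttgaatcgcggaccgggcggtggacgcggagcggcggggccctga
Ube2c promoter, chr2:164769679-164769978, plus strand: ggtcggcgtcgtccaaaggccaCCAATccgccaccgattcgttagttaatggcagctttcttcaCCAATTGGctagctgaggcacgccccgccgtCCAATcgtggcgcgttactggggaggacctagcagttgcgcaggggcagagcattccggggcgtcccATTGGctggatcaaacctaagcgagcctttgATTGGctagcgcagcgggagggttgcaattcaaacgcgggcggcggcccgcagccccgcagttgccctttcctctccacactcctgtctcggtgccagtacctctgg

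The Ube2c window held 6 matches, of which a pair overlap in CCAATTGG, and the Ccnb2 window held 3.

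**Figure D3:**
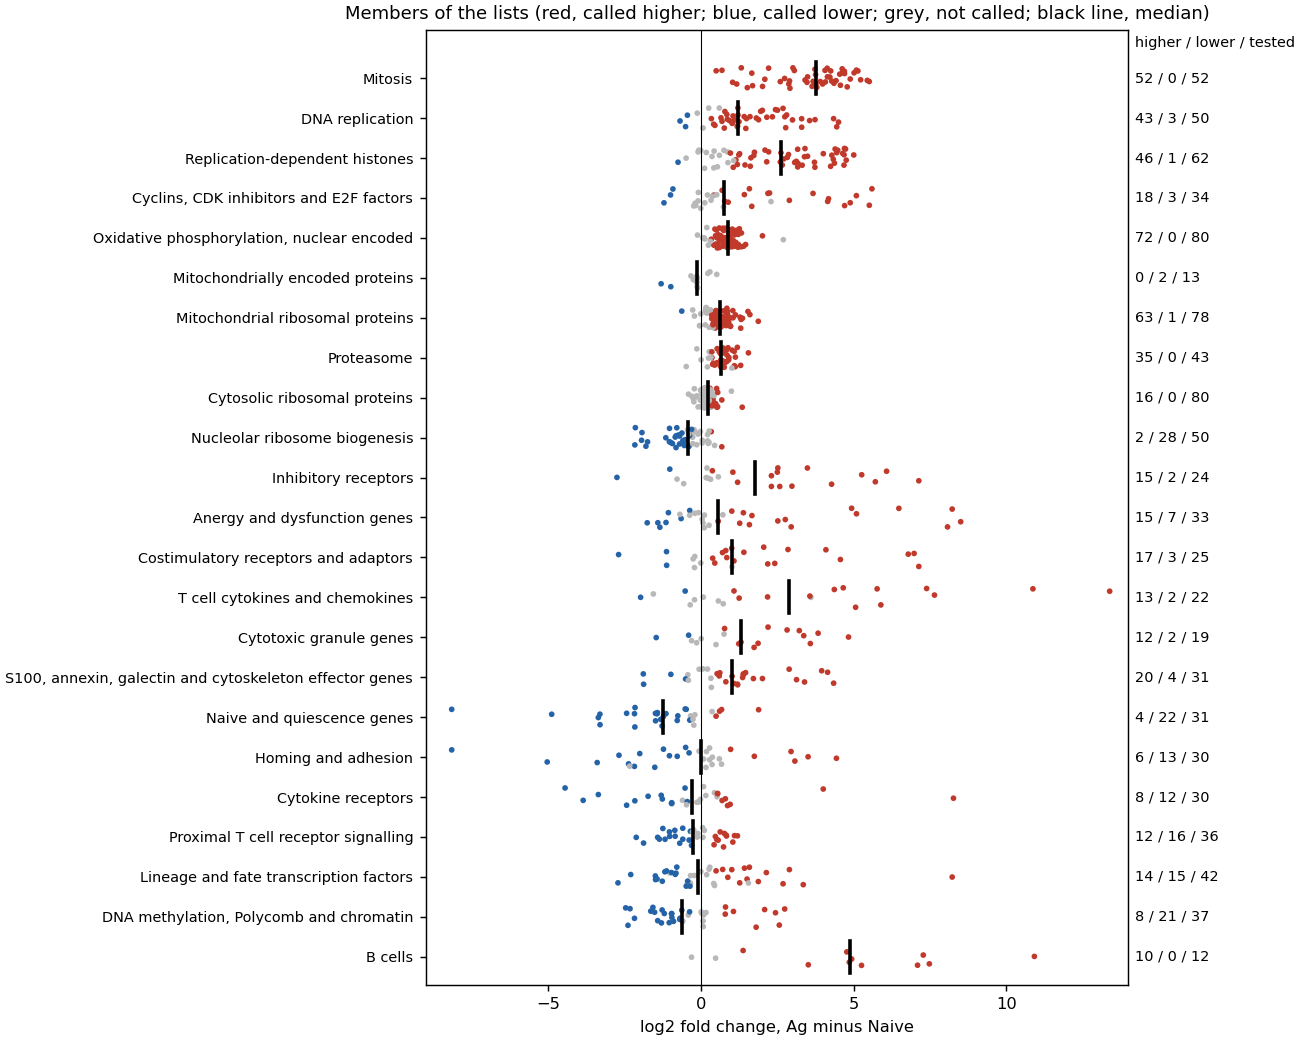
Each point is a member of the list named at the left, with its log2 fold change, Ag minus Naive, on the x axis, red where called higher, blue where called lower and grey where not called, and the black line marks the list's median. The counts at the right give members called higher, called lower and tested, from 52 of 52 higher for mitosis to 28 of 50 lower for nucleolar ribosome biogenesis.

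Most nuclear genes of mitochondrial energy production rose. Over all genes tested, 24.2% were called higher and 22.5% lower. Of 80 nuclear-encoded subunits of oxidative phosphorylation, 72 (90%) were called higher and none lower by edgeR. Their log2 fold changes ran from -0.11 to 2.70 with a median of 0.90, and DESeq2 called 73 higher and 0 lower. Of the lists with no call in a direction by edgeR, the killer lectin-like receptors had 2 members and the proteasome 1 past an unadjusted p of 0.05 in that direction, the others had 0, and DESeq2 called 0 in each. The rises of abundant members included those of Atp5j (1.47 ± 0.139), a subunit of the ATP synthase, and Ndufs8 (1.40 ± 0.153), a subunit of complex I. The 13 proteins encoded in mitochondrial DNA did not move with them. None was called higher and 2 (15.4%) were called lower, mt-Nd3 (-1.30 ± 0.38, adjusted p of 0.013) and mt-Nd4l (-0.98), with a median of -0.13. Ag 4 was the highest Ag library for mt-Co1, at 5664 CPM against 2111 to 3238 CPM in the other Ag libraries and 2061 and 2394 CPM in Naive. Without Ag 4, 6 of the 13 were called lower. The call for mt-Nd3 was lost with the GC correction and without Naive 2 (-1.73 to -0.83 over all settings), and that for mt-Nd4l with both groups fitted alone and without Ag 2, Ag 3 or either Naive library (-1.34 to -0.84). The list's median became 0.11 with the GC correction and 0.01 without Ag 5 and without Naive 2. Of 78 mitochondrial ribosomal proteins, 63 were called higher (41 without Naive 2) and 1 lower, with a median of 0.64, and of 43 proteasome subunits 35 were called higher and 0 lower, with a median of 0.66. Psmb9 and Psmb8, subunits of the immunoproteasome that interferon γ induces, rose by 1.56 and 1.02.

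Genes that build ribosomes moved the other way. Of 50 nucleolar ribosome biogenesis genes, 28 were called lower and 2 higher, with a median of -0.40. The 2 called higher became 1 without Ag 1, Ag 3 or Naive 1 and 0 without Naive 2. Polr1b, a core subunit of RNA polymerase I, went from 58.1 and 57.3 CPM to 15.3, 16.4, 13.3, 15.4 and 14.8 CPM (-1.94 ± 0.183, adjusted p of 2.58e-06), and Heatr1, needed for transcription and processing of ribosomal RNA, from 60.4 and 73.8 CPM to 13.6, 13.2, 14.7, 20.3 and 13.4 CPM (-2.16 ± 0.251). In Ag+Costim these transcripts were at 55 ± 13.9 and 76.7 ± 27.1 CPM (SD, n = 5). Cytosolic ribosomal protein genes hardly moved, with 16 of 80 (20%) called higher and none lower, against 24.2% and 22.5% of all genes. Their median was 0.24, with 70 members above 0 and 10 below. The count of 16 became 29 without Ag 2, 9 without Naive 1 and 3 without Naive 2. Processed pseudogenes of this family can share reads with the parent genes, which makes these counts uncertain. Myc, the factor that drives ribosome production in dividing T cells, went from 160 and 181 CPM to 72, 72, 101, 66.8 and 56.5 CPM (-1.21 ± 0.176, adjusted p of 9.16e-05). Its partner Max (-1.50) and the antagonist Mnt (-2.06) fell, whereas Mxd3, an antagonist of dividing cells, rose by 5.07 ± 0.356. Mycn had 0 counts in Ag 4 and between 1.47 and 7.09 CPM in the other Ag libraries, against 0.0823 and 0 CPM in Naive, and its call (adjusted p of 0.0168) was lost without either Naive library (1.01 to 10.20 over all settings).

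Metabolic and growth genes beyond these lists were mixed. Of 29 glycolysis genes, 13 (44.8%) were called higher and 7 (24.1%) lower, against 24.2% and 22.5% of all genes, with a median of 0.33. Gapdh (1.44), Tpi1 (1.46) and Ldha (0.87), enzymes of the lower pathway and of lactate production, rose, while Pdk1 (-1.70) and Pfkl (-0.70) fell. Of 41 genes of amino acid, one-carbon and nucleotide synthesis, 19 (46.3%) were called higher and 14 (34.1%) lower. Cad, the first enzyme of pyrimidine synthesis, went from 45.1 and 46 CPM to between 7.02 and 16.4 CPM (-2.03 ± 0.317), and the amino acid transporter gene Slc7a5 fell by 1.89. Fasn, the fatty acid synthase, went from 89.1 and 71.6 CPM to between 13.2 and 24.2 CPM (-2.24 ± 0.305). Ag+Costim stood above Naive for Cad, Slc7a5 and Fasn, at 158 ± 59, 134 ± 46.2 and 209 ± 87.9 CPM (SD, n = 5). Ddit4, an inhibitor of mTORC1 induced by stress and glucocorticoids, was at 36.3 and 38.2 CPM in Naive and at 1.36, 1.28, 1.54, 1.9 and 1.39 CPM in Ag (-4.65 ± 0.261, adjusted p of 5.8e-08). Pim1, a growth-promoting kinase, fell by 3.15 ± 0.263.

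Among 24 genes of the BCL-2 family and of cell death, 14 were called higher and 4 lower (2 lower without Naive 1), with a median of 0.63. Bcl2, the survival factor of naïve cells, went from 347 and 340 CPM to between 94.1 and 119 CPM (-1.72 ± 0.162), and Bbc3, the pro-apoptotic p53 target PUMA, from 53.1 and 55.9 CPM to between 4.3 and 6.73 CPM (-3.26 ± 0.221). Bcl2a1b and Bcl2a1d, near-identical copies of the survival factor A1, rose by 3.90 and 4.41, and Mcl1 by 0.91. The BCL-2 list had 58.3% called higher and 16.7% lower, against 24.2% and 22.5% of all genes. Of 31 genes of the S100, annexin, galectin and cytoskeleton group, 20 (64.5%) were called higher and 4 (12.9%) lower, with a median of 1.03. The 4 called lower became 2 without Ag 2, Ag 3 or Ag 5 and 1 without Naive 1. Lgals3, which encodes galectin 3, was at 7.7 and 5.33 CPM in Naive and at 137, 138, 120, 142 and 128 CPM in Ag (4.35 ± 0.217, adjusted p of 3.03e-08). Capg, an actin-capping protein, was at 27.5 and 27.4 CPM against 254 to 689 CPM (4.15 ± 0.381), and Anxa2 at 62 and 55.4 CPM against 787 to 1008 CPM (3.96 ± 0.173). Lgals1 reached 1005 to 1236 CPM from 154 and 146 CPM. Of 54 interferon-stimulated genes, 16 were called higher and 9 lower, near the shares over all genes, with Ifi27l2a (2.37) among the rises and Oas2 (-2.48) and Slfn8 (-1.64) among the falls. Without Naive 1 and Naive 2, 10 and 9 of them were called higher and 5 and 3 lower. Of 37 genes of DNA methylation, Polycomb and chromatin, 8 (21.6%) were called higher and 21 (56.8%) lower, with a median of -0.62. Hmgb2 (2.75), H2afz (2.09) and Ezh2 (1.81), whose products accumulate in dividing cells, rose, and the histone methyltransferase Kmt2d (-2.38) and the demethylase Kdm6b (-2.46) fell.

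Among the genes with a mean log2 CPM above 3 over all 12 libraries and no overlap between groups, the 20 largest falls included transcripts tied to structural RNA. Genes below that mean, such as Ccr9, are outside this ranking whatever their fall. Lars2, whose gene carries a stretch that resembles ribosomal RNA, was at 9264 and 9256 CPM in Naive and at 70.2, 76, 94.8, 265 and 75.8 CPM in Ag (-6.32 ± 0.426, adjusted p of 1.94e-07). Gm24270, annotated as a miRNA gene on the same chromosome (9), fell from 142 and 140 CPM to between 0.722 and 1.74 CPM (-6.94 ± 0.353), and Gm23935, annotated likewise on chromosome 16, from 846 and 1024 CPM to between 12.9 and 74.6 CPM (-5.10 ± 0.554). Rn7s1 and Rn7s2, near-identical copies of the 7S RNA of the signal recognition particle, changed by -3.62 and -3.60. In Ag+Costim these stood between the groups, with Lars2 at 3885 ± 517 CPM (SD, n = 5). Ribosomal and 7S RNAs carry no regular poly(A) tail, Ag 4 was the highest Ag library for Lars2, Gm23935 and Rn7s1, and a part of library preparation in their level was not tested. The other protein-coding genes of this group included Lfng, a glycosyltransferase that modifies Notch (-4.13), the adhesion receptor Adgrg5 (-3.99), Prag1 (-3.44), the formin Fmnl3 (-3.08), the actin crosslinkers Actn1 (-3.30) and Actn2 (-3.35), and Tmem87a (-4.36). The remaining members of the 20 largest falls were Gm21982 (-5.39), C230085N15Rik (-4.69), Rn7s6 (-3.57) and Gm42688 (-3.11). Of the 40 genes with the largest rises or falls, 16 share exonic bases with another annotated gene, and the kit did not record strand, so their counts may mix neighbours.

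A pair of features of the libraries moved with the groups and bear on the values above. The first is gene length. Among 13121 protein-coding genes, split into 5 bins by exonic length, the shortest (up to 2352 bases) had 46% called higher and 7.39% called lower, and the longest (from 7351 bases) had 13.4% called higher and 47.2% called lower. The medians ran from 0.61 to -0.53 on the log2 scale, and from 0.49 to 0.00 after a correction for a length trend within each library. With that correction 4963 genes were called higher and 3359 lower, and the lists had medians of 4.04 for mitosis, 0.79 for oxidative phosphorylation, 0.73 for the proteasome, -0.40 for nucleolar ribosome biogenesis and -0.98 for the naïve state, whereas the chromatin list went from -0.62 to -0.22 with 12 members called lower in place of 21. Whether length differences reflect the cells or the RNA was not tested.

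**Figure D4:**
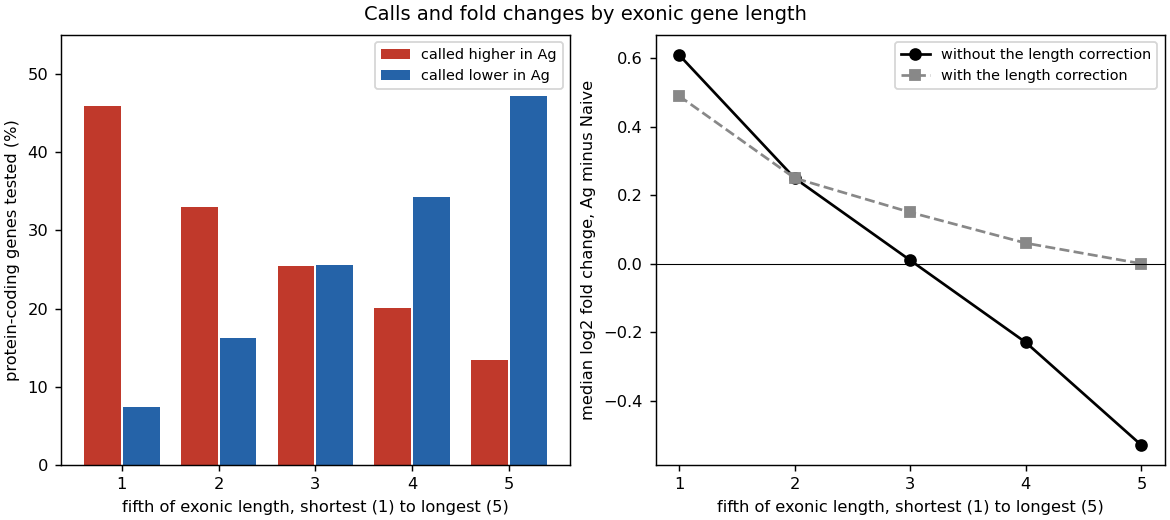
Protein-coding genes tested are split into 5 bins of exonic length on the x axis, with the percent called higher (red) and lower (blue) in Ag on the left and the median log2 fold change, with and without the length correction, on the right. The share called higher runs from 46% to 13.4% and the share called lower from 7.39% to 47.2%, shortest to longest.

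The second is the level of transcripts that mark other cell types. Of 12 B cell markers, 10 were called higher in Ag and 0 lower, with a median log2 fold change of 4.90. Ms4a1, which encodes CD20, was at 0.144 and 0.063 CPM in Naive and at 10.2, 21.2, 12.7, 20.1 and 18.9 CPM in Ag. The 9 markers outside the immunoglobulin genes summed to 31.6 and 27.8 CPM in Naive and to 129 to 193 CPM in Ag. Igkc, the κ light chain constant region, was among the 20 largest rises, with 643 CPM in Ag 1 and 88.4 to 164 CPM in the other Ag libraries against 1.52 and 1.01 CPM. Of 122 immunoglobulin variable segments tested, 38 (31.1%) were called higher and 0 lower, against 24.2% and 22.5% of all genes. All 218 annotated variable segments summed to 1.13 and 1.05 CPM in Naive and to 66.5 to 426 CPM in Ag. The methods describe a sort of the Ag cells on CD8, a donor CD45 allele and both chains of the OT-I receptor. B cells fall outside that gate. By the same methods the OT-I mice were deficient in a recombinase-activating gene, and the recipients of the Ag cells were wild type. The source of these transcripts was not tested. Ighm and Ighd overlapped between the groups. Of 14 myeloid markers, 7 were called higher and 2 lower. Without Naive 2 none of the 7 was called, and none of the 2 without Ag 1, Ag 2, Ag 3, Ag 5 or Naive 1. The summed level of the myeloid markers was 123 and 38.2 CPM in Naive and 77.9 to 193 CPM in Ag. Erythroid and platelet markers summed to 2080 and 152 CPM in Naive and to 640 to 6421 CPM in Ag, with Ag 4 highest. The 4 markers of CD4+ and regulatory T cells summed to at most 7.83 CPM, and Cd4 was at 0.981 CPM in Ag on the mean. The parts of these cells in genes that they share with T cells, such as Cd86, Cd200, Irf8 and Cxcr5, were not tested.

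**Figure D5:**
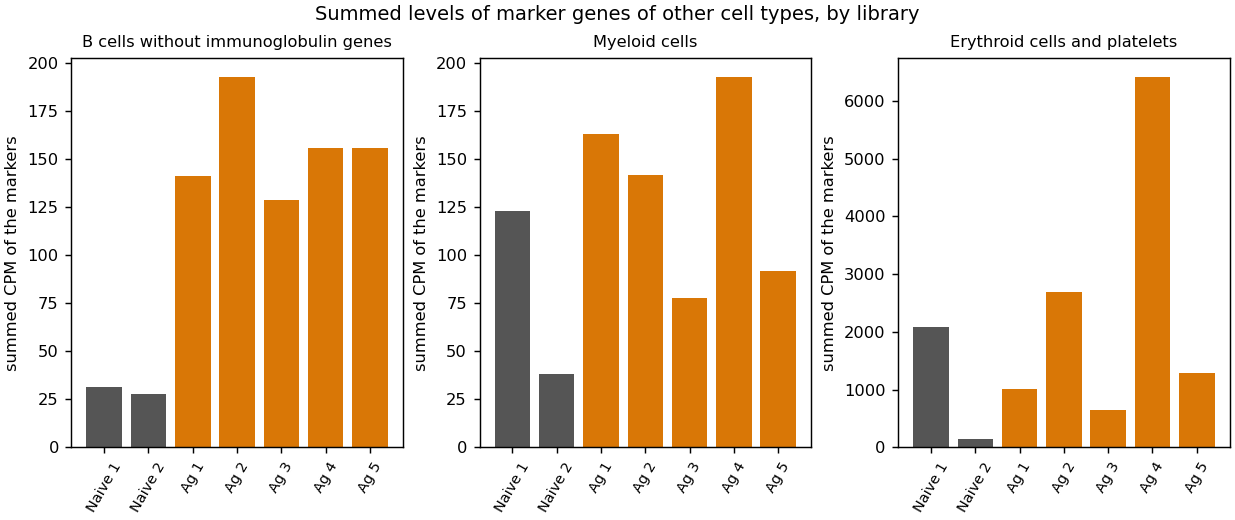
Bars give the summed CPM of marker genes of B cells without immunoglobulin genes (9 genes), myeloid cells (15) and erythroid cells and platelets (10) in the 2 Naive (grey) and 5 Ag (orange) libraries. B cell markers are 27.8 and 31.6 CPM in Naive and 129 to 193 CPM in Ag, and the erythroid sum is highest in Ag 4.

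Per length, in the deposited FPKM summed over the transcripts of each gene, the most abundant named transcripts were largely shared. Tmsb4x, the actin-sequestering thymosin β4, was first in Ag at 19816 ± 2272 FPKM (SD, n = 5) and second in Naive at 10539 ± 1068 FPKM (SD, n = 2), behind Gm23935. Trbc2, Trbv12-1, H2-K1, H2-D1 and Pfn1 were among the 10 highest in both groups. Trac and Traj33 were among the 10 highest only in Naive, at 7788 and 3026 FPKM against 2613 and 499 FPKM in Ag, and Cd52, B2m, Nkg7 and Trbc1 only in Ag. These are levels without a test.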

How the data were processed

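RNA from 12 samples, sequenced as single-end reads from an unstranded poly(A) kit, was analysed, of which 7 belong to the comparison. The 5 of Ag+Costim entered the count filter, the scaling, the estimate of the spread and the mean log2 CPM used for ranking. Gene counts were deposited by the authors, who per their processing notes aligned reads to mm10 with HISAT2 2.1.0 and SAMtools 1.9, assembled them with StringTie 2.1.0 and used DESeq2 1.30.1 in R 4.0.5. These counts derive from read coverage and not from whole reads, with totals of 24006053 to 45980125 in Ag and 42342577 and 43491402 in Naive, so precision and floors (3 counts per library) are approximate and cover counting error only. FPKM per transcript were deposited by the authors and summed here per gene. Percent of reads aligned was deposited in the sequencing core's sheet by the authors and was used only to relate counts to aligned reads. Of 81881 entries, 26345 without an Ensembl identifier (0.0508% to 0.121% of counts) were left out.

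Genes passing filterByExpr were tested with edgeR 4.0.16 in R 4.3.3 (TMM scaling, robust quasi-likelihood, group model on 12 libraries, Benjamini-Hochberg adjustment, called below 0.05). Alternatives were upper-quartile scaling, DESeq2 1.42.0, both groups alone, no filter, limma 3.58.1 on log2(FPKM + 1) and log2(FPKM + 0.1) of genes with at least 1 FPKM in 2 libraries, length and GC corrections, a replicate block, a covariate of Y-linked counts, leaving out each library, and stricter thresholds. The length and GC corrections fit a trend within each library and pass it as offsets. The script was tested on simulated data. Replicate numbers do not pair the samples by any label. Named genes were the 20 largest rises and falls with mean log2 CPM above 3 and no overlap between groups, members of 47 gene lists, largest changes first, and the 10 genes of highest FPKM in each group. Members and lists were chosen with earlier results of these data known. Transcript counts and splicing tables were not used here, and some list members are counted but not named.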

Additional observations from a re-analysis of the deposited data

Results flagged for a closer look

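In 18 of 204 values tested over the 5 Ag libraries, 1 library stood far from the others by Dixon's ratio (its gap to the nearest library over the whole range, critical value 0.71). For independent values chance would give about 10. Many of these values move together, such as those of Rn7s1, Rn7s2 and Rn7s6, so that figure is a rough guide only. Ag 4 was the library in 15 of the 18. It was lowest in total counts (0.849) and in counts per aligned read (0.846) and highest in the core's complexity figure (0.781). It was highest for Gm23935 (0.889), Lars2 (0.873), Rn7s1 (0.843), Rn7s2 (0.839) and Rn7s6 (0.794), for Pim1 (0.911), Kmt2d (0.833) and Heatr1 (0.792), and for Gzma (0.754) and Gzmb (0.720), and lowest for Icos (0.811) and Il2rg (0.755). Ag 1 was highest for Igkc (0.863) and Tfrc (0.770), and Ag 5 for Cxcr5 (0.742). Without Ag 4, 4944 genes were called higher and 4625 lower. The part of depth or complexity in these values was not tested.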

How the results depend on the processing

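Of 176 named genes that were called, 153 kept call and direction in every alternative with a value and 23 lost the call in at least 1. The call counts stayed within 1.5 times of 4559 and 4233 except against a fold change of 2 (1177 higher, 1066 lower) and without Naive 2, and ranged from 2906 to 4944 higher and from 2807 to 4625 lower when 1 library was left out, lowest without Naive 2 and highest without Ag 4. With 1 Naive library left, that library is assumed to vary like the other groups. The Naive side is then of 1 sex by its Y-linked and Xist levels, while the Ag group holds both. Without Naive 2, 2843 of the 4559 higher calls remained (62.4%). The test on FPKM plus 1 called 3434 higher and 4722 lower.

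Replicate numbers used as a block gave 4140 higher and 3775 lower calls. Same-numbered samples did not deviate together (correlations of 0.037 and -0.064). With 2 Naive libraries the deviations of 1 mirror those of the other, so this check cannot show whether the samples are paired. Y-linked levels went with the numbers in part, being high in Naive 1, Ag 1 and Ag 2 and low in Naive 2 and Ag 3 to Ag 5.

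Direction turned for uncalled genes. Prf1 was at -0.18 with FPKM plus 1 and FPKM plus 0.1, -0.02 with the length correction, -0.21 with the replicate block, -0.04 with the Y-linked covariate, and between -0.14 (without Naive 1) and 0.18 with 1 library left out. Cblb was at -0.08 and -0.09 with FPKM plus 1 and plus 0.1. Il2rb was at 0.07 with the length correction, 0.02 with the GC correction and between -0.20 and 0.01 with 1 library left out (highest without Ag 4), and Prdm1 between -0.93 (without Naive 2) and 0.28 (without Naive 1). The cause was not tested. Of 750 list medians over alternatives, 660 moved by less than the SD between Ag libraries, and of 1500 list counts 1379 stayed within 1.5 times. Groups of 5 and 2 limit what can be called, and genes near the floor carry wide errors.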

Other observations

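Most of the other groups of genes held calls in both directions. Over all genes tested, 24.2% were called higher and 22.5% lower, and the share of chaperones called higher (25%) was near the first of these. The shares called higher were above it for the tricarboxylic acid cycle (54.5%), translation factors (41%) and splicing proteins (39.7%). Those called lower were 18.2%, 17.9% and 29.5%. Of 22 genes of the tricarboxylic acid cycle, 12 were called higher and 4 lower, with a median log2 fold change of 0.41. Of 20 cytosolic aminoacyl-tRNA synthetases 6 were called higher and 7 lower (median 0.07, or -0.11 on the FPKM values), the 6 becoming 1 without Naive 1 and 0 without Naive 2. Of 39 translation factors 16 were called higher and 7 lower (0.18, or -0.04 on the FPKM values), and of 78 splicing proteins 31 and 23 (0.16, or -0.07 on the FPKM values), the 31 becoming 18 without Naive 2. Of 36 chaperones 9 were called higher and 4 lower (0.31), the 9 becoming 2 without Naive 2 and the 4 becoming 2 without Ag 5 and 1 without either Naive library. Cholesterol genes (8 higher and 10 lower of 26, median -0.05) and fatty acid genes (6 and 9 of 22, median -0.14) had medians of 0.14 and 0.05 with the length correction, and that of the fatty acid genes was 0.01 without Naive 2. The cholesterol genes called higher became 4 and 5 without Naive 1 and Naive 2, those called lower 6 without Naive 2, and the fatty acid genes called lower 5 without Naive 1. Of 16 killer lectin-like receptors, 3 were called higher and none lower by edgeR, with a median of 0.00. In the lower direction 2 members passed an unadjusted p of 0.05, DESeq2 called 0, and 3 were called without Ag 4.

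Kinds of transcript differed. Processed pseudogenes were called higher in 30.3% of 2047 and lower in 4.98%, whereas 1.69% of 118 sense intronic transcripts were called higher and 31.4% lower, and transcripts of the annotation's class TEC (875 tested) gave 2.63% and 25.7%. Without strand in the reads, intronic and antisense transcripts cannot be told apart from unspliced RNA of their host genes. Of 830 genes tested that had 0 counts in both Naive libraries, 286 were called, and of 206 with 0 counts in all 5 Ag libraries, 108.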
